A study of Homo sapiens with 6 samples.

Results

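The genes described here encode 3 families of RNA-binding proteins that steer the splicing of precursor mRNA, as measured on microarrays in MDA-MB-231 cells, a widely used triple-negative line of human breast cancer. They were chosen by name: the rule takes genes with a single-gene probe set whose symbol begins with SRSF and a number, with HNRNP and a letter, or with RBM and a number. That gave 67 of the 19775 genes tested, namely 10 SRSF genes, 21 HNRNP genes and 36 RBM genes, measured by 222 of the 41091 probe sets that carry 1 gene. The rule reads symbols and no values, but these families were put forward with the results of the same contrast known. Their counts and p-values are therefore a description of these arrays and support nothing further. HNRNPA3P1, a pseudogene, and HNRNPD-DT, a transcript divergent from HNRNPD, are matched by the rule, and neither passed the threshold.

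The SDC1 siRNA group held 3 arrays of cells given a small interfering RNA (siRNA) that targets SDC1, the gene of the heparan sulfate proteoglycan syndecan-1. The control siRNA group held 3 arrays of cells transfected with a negative control siRNA, and the series design calls the replicates of a group independent. No age, dose or time after transfection is given in the sources used here. All 6 samples were of the same line, and in such bulk RNA fewer expressing cells and less RNA per cell cannot be told apart.

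Splicing removes introns from precursor mRNA, and the sites used are chosen by proteins that bind the transcript near them. SR proteins, encoded by the SRSF genes, bind exonic enhancers through RNA recognition motifs and recruit the splicing machinery through a domain rich in serine and arginine that kinases phosphorylate. Heterogeneous nuclear ribonucleoproteins, encoded by the HNRNP genes, package nascent transcripts, often oppose SR proteins at exons and also govern the export, decay and translation of mRNA. RBM genes are named for an RNA-binding motif rather than for shared ancestry, and their products range from spliceosome and exon junction proteins to tissue-specific regulators and partners of RNA methylation.

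The promoters of the 3 members that rose most among those of the brightest class, and of the pair that fell most, are shown because the report turns on these genes. Each sequence is the 250 bases before the annotated start from RefSeq (GRCh38.p14), 5′ to 3′ on the strand of the gene. Capitals mark matches, on either strand, to any of 8 motifs.

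HNRNPUL1: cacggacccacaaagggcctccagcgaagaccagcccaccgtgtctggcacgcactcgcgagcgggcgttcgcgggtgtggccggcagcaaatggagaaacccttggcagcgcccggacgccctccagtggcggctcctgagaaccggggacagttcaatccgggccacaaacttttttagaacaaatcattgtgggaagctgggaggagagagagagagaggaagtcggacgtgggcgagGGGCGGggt
HNRNPD: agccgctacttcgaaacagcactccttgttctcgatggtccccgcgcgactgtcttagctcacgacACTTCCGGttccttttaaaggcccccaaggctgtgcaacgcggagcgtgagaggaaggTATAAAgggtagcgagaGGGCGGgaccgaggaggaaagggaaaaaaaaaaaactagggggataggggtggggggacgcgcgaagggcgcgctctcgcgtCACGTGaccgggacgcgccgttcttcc
RBM15B: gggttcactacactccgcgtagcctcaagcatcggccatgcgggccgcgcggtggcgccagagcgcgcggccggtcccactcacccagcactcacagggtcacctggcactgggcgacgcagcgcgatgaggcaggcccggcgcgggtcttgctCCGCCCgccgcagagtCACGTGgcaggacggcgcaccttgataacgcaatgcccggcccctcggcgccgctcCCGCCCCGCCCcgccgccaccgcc
RBM42: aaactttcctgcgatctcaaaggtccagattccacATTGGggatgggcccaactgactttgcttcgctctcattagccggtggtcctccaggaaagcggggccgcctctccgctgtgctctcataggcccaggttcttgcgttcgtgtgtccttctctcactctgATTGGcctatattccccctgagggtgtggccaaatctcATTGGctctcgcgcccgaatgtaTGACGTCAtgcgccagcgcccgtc
RBM8A: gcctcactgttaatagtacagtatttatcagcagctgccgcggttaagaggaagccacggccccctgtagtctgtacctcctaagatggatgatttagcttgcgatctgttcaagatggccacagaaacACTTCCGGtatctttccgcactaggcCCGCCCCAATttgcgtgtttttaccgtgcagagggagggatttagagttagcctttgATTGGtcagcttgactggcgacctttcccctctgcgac

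These windows lie at chr19:41262307-41262556 on the plus strand for HNRNPUL1, chr4:82373992-82374241 on the minus strand for HNRNPD, chr3:51391035-51391284 on the plus strand for RBM15B, chr19:35628786-35629035 on the plus strand for RBM42 and chr1:145927485-145927734 on the minus strand for RBM8A. The motifs searched were the SP1 GC box (GGGCGG), the NRF1 core (GCGCATGC), the ETS site (CCGGAAGT), the cyclic AMP response element (TGACGTCA), the YY1 core (AAGATGGCG), the TATA box (TATAAA), the CCAAT box (CCAAT) and the E-box (CACGTG). HNRNPUL1 holds a single GC box, 9 to 4 bases before the start. HNRNPD holds an ETS site, a TATA box, a GC box and an E-box in that order. RBM15B holds 3 GC boxes, of which the last pair share a base 19 bases before the start, and an E-box. RBM42 holds 3 CCAAT boxes and a cyclic AMP response element, and RBM8A an ETS site, a GC box and 2 CCAAT boxes, the first of which shares a base with the GC box 90 bases before the start.

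A promoter was found for 61 of the 67 members. Of these, 60.7% held a GC box and 52.5% a CCAAT box, against 42.3% and 33.0% of all 27305 promoters of the same length. An ETS site was in 11.5% of member promoters and in 3.64% of all, a cyclic AMP response element in 4.92% and 1.77%, an E-box in 13.1% and 6.49%, and a TATA box in 11.5% and 11.1%. The NRF1 core was in 4.92% of member promoters and 2.81% of all, and the YY1 core in 1.64% and 0.641%. Member promoters had a median of 23 CpG, against 11 in all promoters. Between families, the CCAAT box was in 12 of 19 HNRNP promoters, 18 of 32 RBM promoters and 2 of 10 SRSF promoters. A match is a stretch of letters and says nothing of whether a factor binds there.

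The deposited values are log2 expression with each probe set centred on its median over the 6 arrays. They give changes and no levels, and for a single probe set the arrays on either side of the median lie equally far from 0. From the numeric step of the values, each probe set was assigned to 1 of 3 brightness classes, at a log2 level of 2 to 4, 4 to 8 or 8 to 16. This class is inferred and can be wrong: 15.7% of probe sets placed in the brightest class showed steps too coarse for it. Each gene is represented by the average over its brightest class of probe sets. Fold changes divide SDC1 siRNA by control siRNA and carry the standard error (SE) of limma's fit, and genes passed the threshold at a Benjamini-Hochberg adjusted p under 0.05 over all genes. SDC1 itself lay at -1.14, -1.16 and -1.43 in SDC1 siRNA arrays, against 1.13, 1.32 and 1.09 in control siRNA arrays. The groups did not overlap, and SDC1 was at 18.7% of its control level (log2 fold change -2.42, SE 0.097), with values of -2.28 and -2.63 within the batches described next.

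Added poly-A control transcripts split the arrays into batches that each hold both groups. SDC1 siRNA replicates 1 and 2 and control siRNA replicate 1 had means of 0.39 to 0.68 for them, and the other arrays -0.47 to -0.43. The labels name no batch. Of the genes that mark the cell line, VIM, CD44 and EGFR were in the brightest class, with log2 fold changes of -0.62, -0.68 and -0.41. ESR1 and ERBB2, low in triple-negative cells, were in the same class and PGR in the middle one, so this coarse class does not check the label. Of genes of other cell types, PECAM1 was in the brightest class, PTPRC and CD3E in the middle one and ALB in the dimmest. None of these 4 passed the threshold. Whether these genes' changes bear on the members was not tested.

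After SDC1 silencing, single members of the families changed in both directions, while the median member moved little. Of the 67 members, 13 rose and 6 fell, and for each of these 19 the arrays stood apart by group. The called share was 28.4% of members, against 28.2% of all genes (13.0% higher and 15.2% lower). Whether called or not, 34 members (50.7%) had no overlap between the groups' arrays, against 41.8% of all genes. Changes of at least 1.5-fold were called for 6 members (8.96%), all of them rises, against 7.0% of all genes in either direction. Among genes of the brightest class, 14 of 52 members (26.9%) were called, against 41.5% of all such genes. Since the families were put forward with this contrast known, nothing is read from these shares.

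Most called members were RBM genes. Of the SRSF genes, 1 rose and 1 fell of 10, with log2 fold changes from -0.18 to 0.20. Of the HNRNP genes, 3 rose and 0 fell of 21, over a range of -0.17 to 1.14. By limma, 1 HNRNP gene was lower at an unadjusted p under 0.05. Of the RBM genes, 9 rose and 5 fell of 36, from -0.43 to 0.89. Median log2 fold changes were 0.02 for SRSF, 0.03 for HNRNP and 0.08 for RBM, against 0.0045 for all genes. The difference between families was not tested. The SRSF and HNRNP medians became -0.03 and -0.01 without control siRNA replicate 1, and HNRNP was also below 0 without SDC1 siRNA replicate 1 or 3. The RBM median stayed between 0.06 and 0.11 over the arrays left out.

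**Figure D1:**
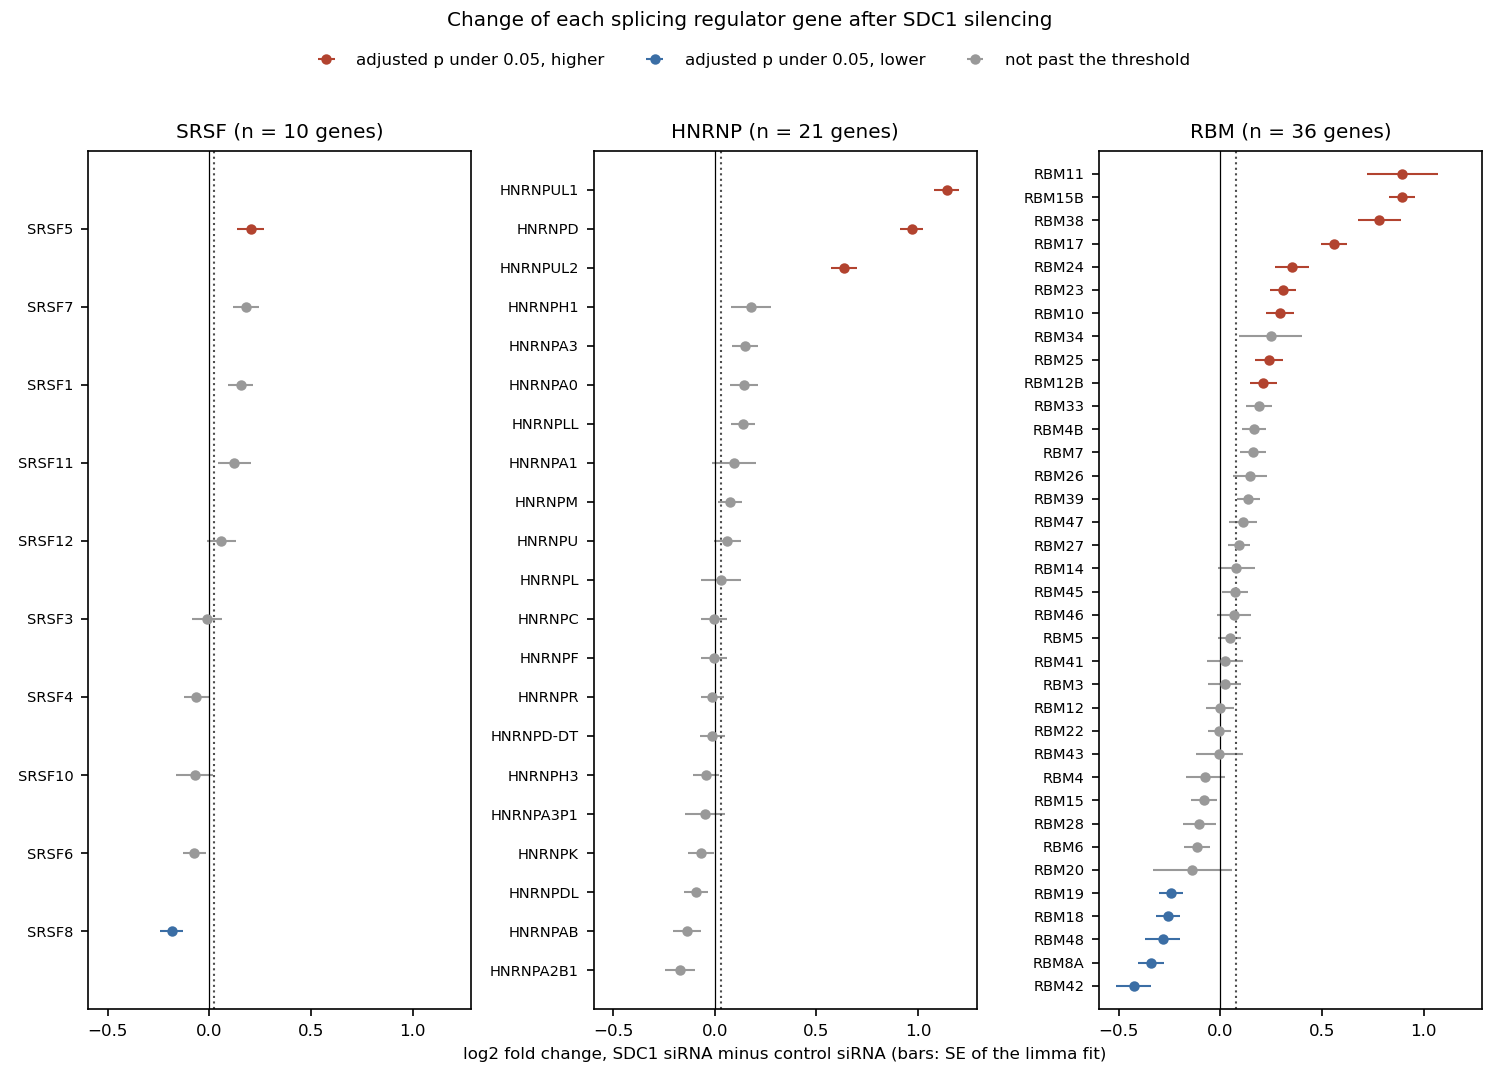
Log2 fold change (SDC1 siRNA minus control siRNA, horizontal axis) of each member, with the SE of limma's fit as bars and a dotted line at the family median. Members past the threshold are red (higher) or blue (lower): 2 of 10 SRSF genes, 3 of 21 HNRNP genes and 14 of 36 RBM genes.

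Among the HNRNP genes, the rises belonged to a pair of related proteins and to a regulator of mRNA decay. HNRNPUL1, an hnRNP U-like protein that also takes part in the response to DNA breaks, lay at 0.49, 0.60 and 0.59 in SDC1 siRNA arrays, against -0.62, -0.55 and -0.58 in control siRNA arrays. The groups stood far apart relative to the spread within each, and the rise was 2.21-fold (log2 fold change 1.14, SE 0.061, adjusted p = 6.01e-06). Its values within the batches were 1.16 and 1.15. HNRNPUL2, its close relative, rose 1.55-fold, with 0.39, 0.31 and 0.26 in SDC1 siRNA arrays, against -0.26, -0.34 and -0.36 in control siRNA arrays. The groups did not overlap (log2 fold change 0.63, SE 0.063, adjusted p = 0.000149), but the rise was 0.29 when both of its probe sets were averaged (adjusted p = 0.00574).

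HNRNPD, also called AUF1, binds AU-rich elements and directs the decay of mRNAs that carry them. It lay at 0.52, 0.46 and 0.44 in SDC1 siRNA arrays, against -0.48, -0.47 and -0.53 in control siRNA arrays. The groups did not overlap, and the rise was 1.96-fold (log2 fold change 0.97, SE 0.058, adjusted p = 1.01e-05), with 0.97 and 0.94 within the batches. HNRNPDL, which is similar in sequence, and the divergent transcript HNRNPD-DT had log2 fold changes of -0.09 and -0.01 and were not called. The remaining 18 HNRNP genes lay between -0.17 and 0.18. Among them, HNRNPA1, a repressor of exon inclusion, and HNRNPC, which binds nascent transcripts, had values of 0.10 (adjusted p = 0.577) and -0.003 (adjusted p = 0.979). HNRNPA1 was represented by probe sets of the middle brightness class, and its arrays overlapped between groups.

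The RBM genes that rose included a partner of RNA methylation, a p53 target and several splicing regulators. RBM15B, which with RBM15 guides the methyltransferase that places N6-methyladenosine on mRNA, lay at 0.47, 0.54 and 0.38 in SDC1 siRNA arrays, against -0.46, -0.44 and -0.38 in control siRNA arrays. Every SDC1 siRNA array lay above every control siRNA array, and RBM15B rose 1.86-fold (log2 fold change 0.89, SE 0.064, adjusted p = 2.79e-05). RBM15 had a log2 fold change of -0.08 and was not called (adjusted p = 0.410). RBM38, a p53 target that binds and stabilises mRNAs such as that of p21, lay at 0.30, 0.30 and 0.27 in SDC1 siRNA arrays, against -0.27, -0.48 and -0.72 in control siRNA arrays. Its SDC1 siRNA arrays sat close together and its control siRNA arrays spread (1.72-fold, log2 fold change 0.78, SE 0.10, adjusted p = 0.000682).

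RBM11, a splicing regulator known from brain and testis, came from a single probe set in the dimmest class. It lay at 0.84, 0.17 and 0.44 in SDC1 siRNA arrays, against -0.39, -0.67 and -0.17 in control siRNA arrays. The spread was wide, with SDs of 0.33 and 0.25, but the groups did not overlap (1.86-fold, log2 fold change 0.89, SE 0.175, adjusted p = 0.00521). RBM17, the spliceosome protein SPF45, lay at 0.24, 0.28 and 0.29 in SDC1 siRNA arrays, against -0.24, -0.25 and -0.38 in control siRNA arrays. It rose 1.47-fold (log2 fold change 0.56, SE 0.064, adjusted p = 0.000312), and the value was 0.40 when all 4 of its probe sets were averaged.

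The other rises among RBM genes were smaller. RBM24, a regulator of muscle splicing, had a log2 rise of 0.35 (SE 0.082, adjusted p = 0.0124). RBM23, a relative of the coactivator RBM39, rose by 0.31 (SE 0.064, adjusted p = 0.00701), and RBM10, which promotes exon skipping and is mutated in lung adenocarcinoma, by 0.29 (SE 0.070, adjusted p = 0.0133). RBM25, which shifts splice site choice in BCL2L1, rose by 0.24 (adjusted p = 0.0321), and RBM12B by 0.21 (adjusted p = 0.0460). RBM10 did not pass without SDC1 siRNA replicate 2 (0.25, adjusted p = 0.0530). RBM25 did not pass without any 1 of control siRNA replicates 1 and 3 and SDC1 siRNA replicates 1, 2 and 3, with values of 0.19 to 0.26, and RBM12B failed in 7 of 13 settings. These were the omission of control siRNA replicate 2 or 3 or SDC1 siRNA replicate 1 or 2 (0.18 to 0.20), all probe sets averaged (0.16), each array centred (0.21) and the spike-in batch as a block (0.17).

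The RBM genes that fell were changed by less than those that rose most. RBM42, a partner of hnRNP K, lay at -0.27, -0.14 and -0.10 in SDC1 siRNA arrays, against 0.10, 0.37 and 0.30 in control siRNA arrays. All SDC1 siRNA arrays lay below all control siRNA arrays, and RBM42 stood at 74.5% of its control level (log2 fold change -0.43, SE 0.086, adjusted p = 0.00615). RBM8A, the exon junction protein Y14 that marks spliced mRNA for surveillance, lay at -0.14, -0.13 and -0.22 in SDC1 siRNA arrays, against 0.22, 0.20 and 0.12 in control siRNA arrays. It was at 78.9% of control (log2 fold change -0.34, SE 0.062, adjusted p = 0.00350), and its probe sets did not move together, as described further on.

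RBM48, a protein of the minor spliceosome, fell by 0.28 in log2 units (adjusted p = 0.0407), RBM18 fell by 0.26 (adjusted p = 0.00963) and RBM19, which acts in ribosome assembly, fell by 0.24 (adjusted p = 0.0150). RBM19 did not pass without SDC1 siRNA replicate 1 (adjusted p = 0.0614). RBM48 passed in 7 of 13 settings, and did not without control siRNA replicate 2 or 3 or any 1 SDC1 siRNA replicate (-0.32 to -0.20), nor when the spike-in batch was entered as a block (-0.25, adjusted p = 0.0860). The count of RBM genes that fell was 3 without SDC1 siRNA replicate 1.

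No SRSF gene changed by 1.5-fold, and both called changes were small. SRSF5, the SR protein SRp40, lay at 0.04, 0.10 and 0.18 in SDC1 siRNA arrays, against -0.15, -0.04 and -0.11 in control siRNA arrays. SRSF8, which arose as a retrotransposed copy of SRSF2, lay at -0.05, -0.12 and -0.09 in SDC1 siRNA arrays, against 0.14, 0.08 and 0.08 in control siRNA arrays. Neither pair of groups overlapped, and SRSF5 rose by 0.20 (SE 0.065, adjusted p = 0.0466) while SRSF8 fell by 0.18 (SE 0.058, adjusted p = 0.0429). SRSF5 had the smallest of the 13 rises and was named after its value was seen. Both calls were lost without any 1 of the 6 arrays, with SRSF5 between 0.17 and 0.24 and SRSF8 between -0.20 and -0.16, so the SRSF counts became 0 higher or 0 lower in nearly all such settings. The replicate block and the averaging of all probe sets ended both calls too, and centring each array ended that of SRSF5. The founding SR proteins SRSF1 and SRSF3, which promote exon inclusion and mRNA export, had log2 fold changes of 0.15 (adjusted p = 0.0969) and -0.01 (adjusted p = 0.935) and were not called.

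**Figure D2:**
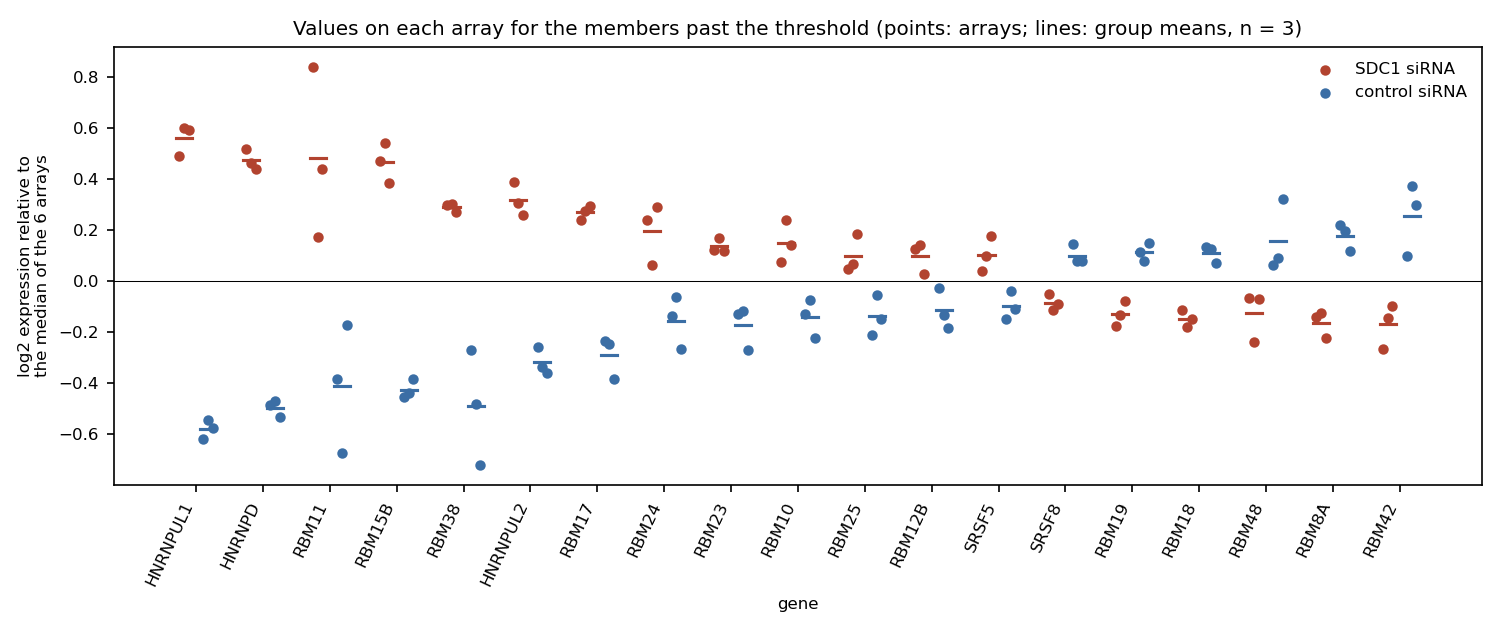
Log2 expression relative to the median of the 6 arrays (vertical axis) for the 19 members past the threshold, SDC1 siRNA arrays in red left of control siRNA arrays in blue, with lines at the group means (n = 3). HNRNPUL1, HNRNPD and RBM15B show the widest gaps with little spread, RBM11 a wide gap with wide spread, and SRSF5 and SRSF8 narrow gaps.

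As their arrays did not overlap between groups, all 19 called members had to keep their direction within both batches, and they did. The call held in every setting run for 12 of them: HNRNPUL1, HNRNPUL2, HNRNPD, RBM11, RBM15B, RBM38, RBM17, RBM24, RBM23, RBM42, RBM8A and RBM18. RBM11, RBM38, RBM24, RBM23 and RBM42 had 1 probe set each, so settings that choose among probe sets could not alter their log2 fold change. Averaging all probe sets likewise left HNRNPUL1 as it was, since both were already used. RBM11 was run in 12 settings, as it drops out with the dimmest class. RBM10, RBM19, RBM25, RBM12B, RBM48, SRSF5 and SRSF8 lost it in at least 1 setting. The 48 members that were not called ranged from -0.17 to 0.25, and 15 of them (31.2%) had no overlap between the groups' arrays, against 19.1% of all uncalled genes.

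Most members were measured by several probe sets, which read different stretches of a gene's transcripts, and some of these disagreed. Of the 67 members, 13 had 1 probe set and 54 had more. Of the 222 probe sets, 38 rose and 14 fell, and 19.8% of all probe sets on the array were called. The count that fell was 9 without SDC1 siRNA replicate 1 and 8 without SDC1 siRNA replicate 2. For each pair of probe sets of a gene, the per-array difference was tested between groups with limma, over 42435 pairs in all. Of the members' 394 pairs, 65 differed (16.5%), against 14.4% of all pairs. The share was 25.2% for HNRNP (36 of 143 pairs), 14.0% for SRSF (12 of 86) and 10.3% for RBM (17 of 165). Pairs of a gene share probe sets, so genes with many, such as HNRNPD with 9, weigh more in these shares. By gene, a pair differed in 9 of 17 HNRNP, 4 of 10 SRSF and 10 of 27 RBM members with several probe sets. The difference between families was not tested. Without probe sets whose suffix (_s_at or _x_at) marks probes shared between transcripts, fewer pairs were tested and 27 differed. That count gives no share.

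A pair differed in 23 of the 54 members with several probe sets (42.6%), against 23.6% of the 10523 such genes. The members also had more pairs per gene, and their share of pairs lay near that of all genes, so nothing is read from this. Of the 23 members, 8 were called as genes and 15 were not. In 20 of the 23 (87.0%) the widest differing pair had opposite signs, against 70.2% of all genes with a differing pair. Both opposite changes passed the threshold in HNRNPU and HNRNPH3 alone. All 23 differences kept their sign within both batches, and 15 held in every setting run.

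**Figure D3:**
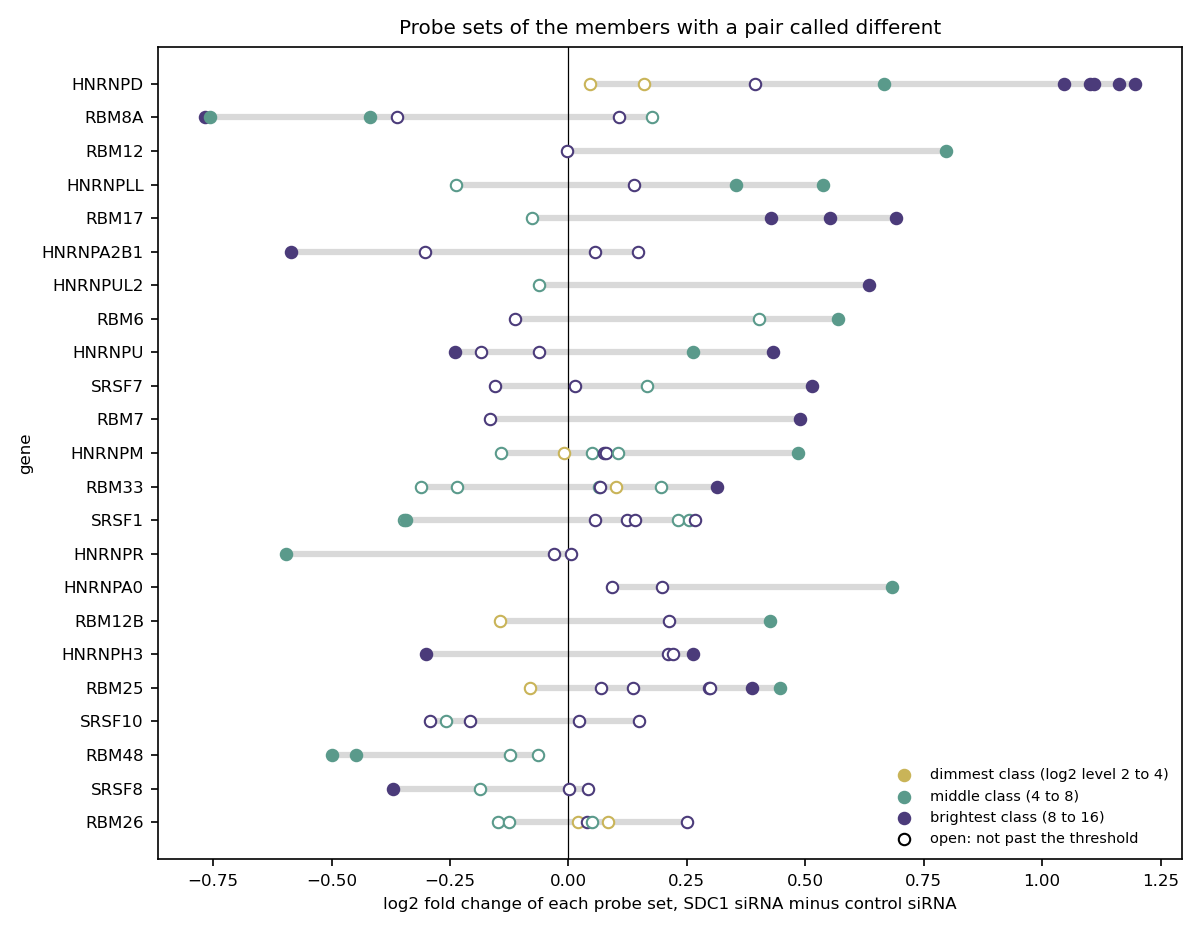
Log2 fold change (SDC1 siRNA minus control siRNA, horizontal axis) of every probe set of the 23 members with a differing pair, coloured by brightness class, filled where past the threshold. The widest bars are those of HNRNPD and RBM8A, at 1.15 and 0.94, and several members have filled points on 1 side of 0 and open points on the other.

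HNRNPD showed the widest difference, between the probe set 229129_at, which rose by 1.20, and 205183_at, at 0.05 (difference 1.15, SE 0.137, adjusted p = 0.000769). 205183_at was in the dimmest class, as was 239040_at (0.16). Of its 6 probe sets in the brightest class, 5 rose by 1.05 to 1.20 and 227744_s_at had 0.39 (adjusted p = 0.0739). The middle-class 213359_at rose by 0.67 (adjusted p = 0.0184).

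RBM8A fell in some probe sets and not in others of the same class. The probe set 214113_s_at lay at -0.35, -0.40 and -0.43 in SDC1 siRNA arrays, against 0.39, 0.39 and 0.35 in control siRNA arrays. It fell by 0.77 (adjusted p = 0.000119), and 217857_s_at, of the middle class, fell by 0.76 (adjusted p = 0.000163). The middle-class 217856_at fell by 0.42 (adjusted p = 0.0128). The bright 213852_at had -0.36 without overlap between groups, but did not pass (adjusted p = 0.0647). In contrast, 222443_s_at of the brightest class lay at 0.01, 0.05 and 0.14 in SDC1 siRNA arrays, against -0.09, -0.01 and -0.02 in control siRNA arrays (log2 fold change 0.11, adjusted p = 0.366). The difference between 1554602_at (0.18) and 214113_s_at was 0.94 (SE 0.163, adjusted p = 0.00486).

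HNRNPA2B1, which also sorts microRNAs into exosomes, was not called as a gene (-0.17, adjusted p = 0.128). Its probe set 225932_s_at lay at -0.23, -0.36 and -0.27 in SDC1 siRNA arrays, against 0.23, 0.26 and 0.41 in control siRNA arrays, and fell by 0.59 (adjusted p = 0.00109). The groups did not overlap there, whereas 244131_at, of the same class, had a log2 fold change of 0.15 (adjusted p = 0.352) with overlapping arrays. The difference between them was 0.73 (SE 0.112, adjusted p = 0.00259). Of the other HNRNPA2B1 probe sets, also of this class, 225107_at had -0.30 without overlap (adjusted p = 0.0946). The last, 205292_s_at, had 0.06 with overlap (adjusted p = 0.746). When the class was taken from all 6 arrays, HNRNPA2B1 was called lower (-0.28, adjusted p = 0.0226).

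SRSF7, the SR protein 9G8, was likewise not called (0.18, adjusted p = 0.0650). Its probe set 201129_at lay at 0.28, 0.27 and 0.20 in SDC1 siRNA arrays, against -0.28, -0.20 and -0.32 in control siRNA arrays, and rose by 0.52 (adjusted p = 0.00121). The groups did not overlap there, nor in 213649_at, which lay the other way at -0.16 (adjusted p = 0.222). The difference between these probe sets was 0.67 (SE 0.103, adjusted p = 0.00266). With the class taken from all 6 arrays, SRSF7 was represented by the higher value and was called (0.52, adjusted p = 0.000345).

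RBM12 had a bright probe set with a change near 0 and a dimmer one that rose. The bright 212168_at lay at -0.002, -0.08 and 0.11 in SDC1 siRNA arrays, against 0.002, -0.04 and 0.07 in control siRNA arrays. The middle-class 212170_at lay at 0.53, 0.39 and 0.30 in SDC1 siRNA arrays, against -0.45, -0.41 and -0.30 in control siRNA arrays. The groups overlapped in 212168_at and stood apart in 212170_at, which rose by 0.80 (adjusted p = 0.000317), and the difference between probe sets was 0.80 (SE 0.118, adjusted p = 0.00226).

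**Figure D4:**
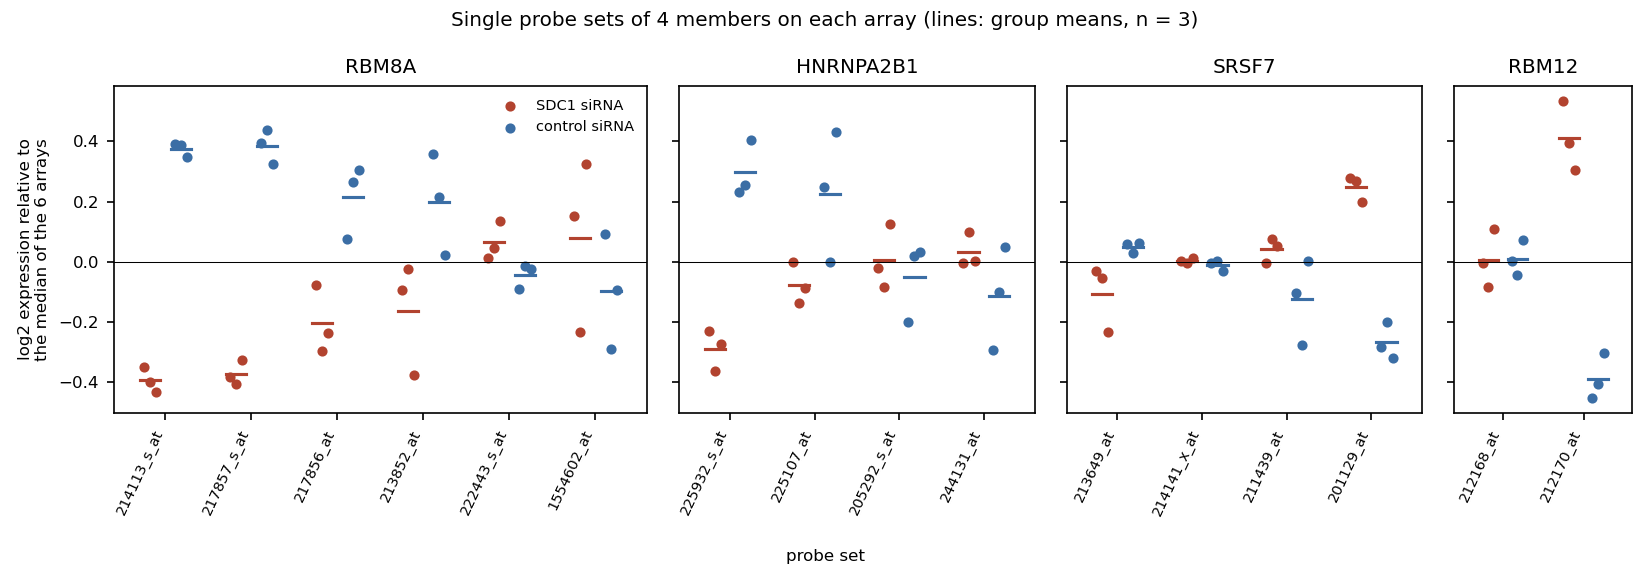
Log2 expression relative to the median of the 6 arrays (vertical axis) for each probe set of RBM8A, HNRNPA2B1, SRSF7 and RBM12, SDC1 siRNA arrays in red left of control siRNA arrays in blue, with lines at the group means (n = 3). Within each gene some probe sets separate the groups (among them 214113_s_at, 225932_s_at, 201129_at and 212170_at) and others do not.

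In HNRNPU, which binds chromatin-associated RNA and nuclear scaffold, 225805_at rose by 0.43 (adjusted p = 0.00239) and 200594_x_at fell by 0.24 (adjusted p = 0.0480). In HNRNPH3, 210110_x_at rose by 0.26 (adjusted p = 0.0348) and 208990_s_at fell by 0.30 (adjusted p = 0.0258). The suffix of 200594_x_at and 210110_x_at marks probes that can also bind other transcripts. RBM7, a part of the complex that hands transcripts to the nuclear exosome, had 235045_at higher by 0.49 (adjusted p = 0.00385) and 218379_at at -0.17 (adjusted p = 0.179), both of the brightest class.

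Among the remaining members, the widest differing pairs of probe sets lay 0.77 apart in both HNRNPLL and RBM17. They lay 0.70 apart in HNRNPUL2, 0.68 in RBM6, 0.63 in HNRNPM and 0.62 in RBM33. SRSF1 had 0.61, HNRNPR 0.60 and HNRNPA0 0.59. Smaller differences were those of RBM12B (0.57), RBM25 (0.47), SRSF10 and RBM48 (both 0.44), SRSF8 (0.41) and RBM26 (0.40). The differences in HNRNPM, SRSF1, RBM12B, RBM25, SRSF10, RBM48, SRSF8 and RBM26 did not pass in at least 1 setting, each of them when some single arrays were left out. HNRNPM, for instance, had a difference of 0.30 within batch 1 and 1.02 within batch 2, and SRSF1 0.26 and 0.70.

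The choice of probe sets also decided some calls. With all single-gene probe sets of a gene averaged, 22 members were called, of which 16 were among the 19. The 6 added were HNRNPA0 (0.32), HNRNPLL (0.20), RBM39 (0.23), RBM12 (0.40), RBM6 (0.29) and HNRNPR (-0.21). RBM6 had -0.11 (adjusted p = 0.247) from its brightest probe set, so its sign depended on this choice. SRSF5, SRSF8 and RBM12B were no longer called.

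Genes that act with these families were taken from 6 lists, written with earlier results of these data known, of which 157 of 170 genes were measured. Of 11 kinases and importers of SR proteins, 4 rose and 1 fell, with a median of 0.16. SRPK2, a kinase that phosphorylates SR proteins in the cytoplasm, rose by 1.21 (SE 0.065) with 0.70, 0.54 and 0.63 in SDC1 siRNA arrays, against -0.64, -0.58 and -0.54 in control siRNA arrays. The groups stood far apart, though SRPK2 had 0.70 with all probe sets averaged and 0.85 when all 6 arrays set the class. CLK4 rose by 0.31, SRPK1 by 0.35 (called in 9 of 13 settings), while TNPO3, the importer of SR proteins, fell by 0.26. When all 6 arrays set the class, CLK4 had 0.48. Of 23 SR-related proteins, 7 rose and 3 fell, with a median of 0.03. RNPS1, an exon junction activator of splicing, rose by 0.77, LUC7L by 0.42, ARGLU1 by 0.36 and LUC7L3 by 0.32.

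Of 41 other splicing regulators, 10 rose and 5 fell, with a median of -0.02. QKI, a regulator of alternative and circular splicing, rose by 1.21 (SE 0.058), and PTBP3, PTBP2 and the helicase DDX17 by 1.19, 0.76 and 0.79. With all probe sets averaged, PTBP3 had 0.68 and DDX17 0.43. QKI lay at 0.62, 0.53 and 0.60 in SDC1 siRNA arrays, against -0.66, -0.62 and -0.61 in control siRNA arrays. Of 14 RNA-binding relatives outside the naming rule, 3 rose and 3 fell, with a median of 0.003. RBMS2 fell by 1.05 and RBMS1 by 0.51, while CIRBP rose by 0.61 and RBMXL1 by 0.58. Averaging all probe sets gave -0.63 for RBMS2 and 0.22 for CIRBP, both still called.

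Of 58 core spliceosome genes, 10 rose and 11 fell, with a median of -0.01. SNRNP27, a protein of the U4/U6.U5 particle, rose by 1.31 (SE 0.055), and SF3B3 and SF3B4 of the branch site complex by 0.48 and 0.50, while SMNDC1 fell by 0.44. Of 10 genes of nonsense-mediated decay and the exon junction, 1 rose and 5 fell, with a median of -0.19. EIF4A3, which forms the exon junction complex with RBM8A, rose by 0.33, while UPF2 fell by 0.28, SMG9 by 0.24 and SMG6 by 0.25. SMG9 passed in 10 of 13 settings and SMG6 in 9, and with all probe sets averaged SMG9 had -0.10 (adjusted p = 0.272).

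The median log2 fold change of all genes was 0.0045. The called shares of the lists ran from 36.2% (core spliceosome) to 60.0% (nonsense-mediated decay and exon junction), beside 28.2% of all genes and 41.5% of genes in the brightest class, which held 54 of the 58 spliceosome genes.

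**Figure D5:**
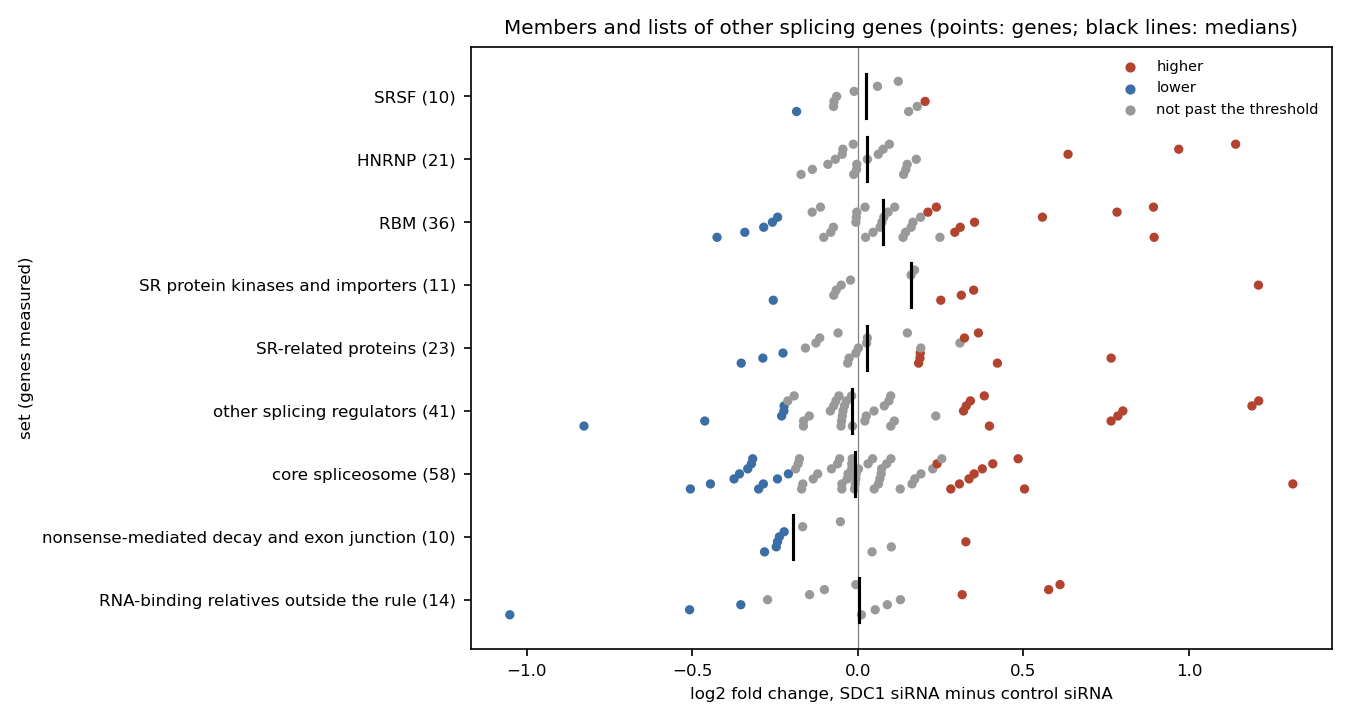
Log2 fold change (SDC1 siRNA minus control siRNA, horizontal axis) of each measured gene of the 3 families and of 6 lists of other splicing genes, points coloured by the call and black lines at the medians. Family medians lie at 0.02, 0.03 and 0.08, and list medians between -0.19 and 0.16.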

How the data were processed

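RNA from 6 samples was labelled and hybridised to 6 Affymetrix arrays. The values are log2 expression as deposited by the authors, made with RMA (robust multi-array average, version not given) per the submitters' processing notes. Each probe set has a median of 0 over the 6 arrays, a centring read from the values. Further processing steps were not given in the sources at hand.

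The platform annotation gave 41091 probe sets a single gene, 1801 several and 11777 none, beside 62 control probe sets left out. Centred values carry no mean, so a brightness class was read from their numeric step; 15.7% of probe sets placed in the top class showed steps too coarse for it. Genes were summarised by averaging single-gene probe sets of the top class that each had, and _x_at probe sets counted only for genes without any other. limma 3.58.1 in R 4.3.3 (lmFit, eBayes, no covariates) tested 19775 genes, 54613 probe sets and 42435 pairs of probe sets, 2-sided, with Benjamini-Hochberg adjustment at 0.05, and was tested on simulated data. The median SE of a log2 fold change was 0.075, limited by 3 arrays a group.

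Members and lists were chosen with earlier results of these data known. Genes named are SDC1, called members without overlap up to the 12 largest rises and 12 largest falls, other members with a differing pair of probe sets, up to 4 genes of each list by lowest p, and 6 textbook factors. Alternatives were all probe sets averaged, the class from all 6 arrays, no dimmest class, centred arrays, a robust prior with trend, the spike-in batch or the replicate number as a block, and each array left out in turn, 13 settings in all, besides each batch alone and pairs without _s_at and _x_at probe sets. The batches were read from the poly-A controls. The labels give both groups numbers 1 to 3. Same-numbered arrays correlated at 0.0146, 0.0812 and 0.0998 in their deviations from the group means, against -0.118 to 0.0407 for differently numbered arrays. As all were low, the numbers were not taken as pairs, but these values cannot show that the arrays were unpaired. RefSeq (GRCh38.p14) gave promoters, matched by gene symbol, with the first entry listed for a symbol kept.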

Additional observations from a re-analysis of the deposited data

Results flagged for a closer look

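Probe sets that the annotation ties to several genes entered no comparison above. Of 20 that carry the name of a gene of the 3 families, 3 (15%) passed the threshold, each higher in SDC1 siRNA arrays, against 19.8% of all probe sets. The probe set 66053_at, shared by HNRNPUL2 and the read-through HNRNPUL2-BSCL2, lay at 0.16, 0.21 and 0.26 in SDC1 siRNA arrays, against -0.34, -0.18 and -0.16 in control siRNA arrays (log2 fold change 0.44, adjusted p = 0.00446). The probe set 208906_at, shared by the same read-through and BSCL2, had a log2 fold change of 0.33 (adjusted p = 0.0161). The probe set 200997_at, shared by RBM4 and the read-through RBM14-RBM4, lay at 0.13, 0.15 and 0.11 in SDC1 siRNA arrays, against -0.13, -0.11 and -0.20 in control siRNA arrays (log2 fold change 0.28, adjusted p = 0.0199). The single-gene probe set of RBM4 had -0.07 (adjusted p = 0.692). The source of the signal in shared probe sets was not tested.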

How the results depend on the processing

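For SDC1, the called members, 4 textbook factors and the listed genes named above, 48 genes in all, 663 values of log2 fold change kept direction and side of the threshold, 48 kept direction only and 8 changed sign, all in SRSF3, HNRNPA1 and HNRNPC. For differences between probe sets, 221 kept both and 43 direction only. Called members had no overlap between groups, so leaving out an array or adding a block could not change their sign. Over all members, 0 called and 21 of 48 uncalled ones changed sign in at least 1 setting. The cause was not tested for any. With all probe sets averaged, called SRSF genes were 0 higher and 0 lower with a median of 0.0359, HNRNP genes 5 higher and 1 lower, and HNRNPC had 0.0182. With the class from all 6 arrays, 2 SRSF genes were higher and 1 HNRNP gene lower. Centring each array left 0 SRSF genes higher and ended the call of RBM12B, and the robust prior 2. The replicate block, as a paired fit, left 0 SRSF genes higher and 0 lower, ended no other member's call, and moved no other family count by over 1.5 times, but the differences in HNRNPM and RBM48 did not pass. Blocking on the spike-in batch, RBM48 and RBM12B lost their calls, the SRSF median was 0.0571, SRSF3 had 0.0264 and HNRNPC 0.0187. Within batch 1 alone, the medians were 0.0485 for SRSF and 0.0217 for all genes; within batch 2 alone they were 0.0592 for SRSF, 0.1291 for RBM and -0.0166 for all genes. Without _x_at and _s_at probe sets, 27 of the fewer pairs tested differed. Leaving out 1 array at a time gave 0 to 1 SRSF genes higher, 0 lower (0 to 0) and 3 to 5 RBM genes lower, 8 to 13 member probe sets lower, and medians of -0.0279 to 0.062 for SRSF, -0.0133 to 0.0918 for HNRNP, 0.0606 to 0.1055 for RBM and -0.0071 to 0.0083 for all genes. SRSF3 then ranged from -0.0494 to 0.0436, HNRNPA1 from -0.0066 to 0.1627 and HNRNPC from -0.0364 to 0.0294. Signal over background is not in the values, so dim members such as RBM11 carry no detection call.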

Other observations

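SRSF2, SRSF9 and HNRNPH2 were measured only by probe sets shared with another gene, so the naming rule leaves them out. SRSF2, an SR protein that activates exons, had log2 fold changes of 0.15 to 0.19 in its 3 probe sets shared with MIR636, and none passed the threshold (adjusted p = 0.0869 to 0.274). SRSF9 had -0.08 and -0.17 in 2 probe sets shared with GATC (adjusted p = 0.494 and 0.128). HNRNPH2 had -0.12 (adjusted p = 0.377). HNRNPA1 was represented by 2 single-gene probe sets of the middle class. Its single-gene probe set of the brightest class, 214280_x_at, was left out for its suffix and had -0.04 (adjusted p = 0.796). In 2 bright probe sets shared with HNRNPA1-derived copies, the values were 0.20 and 0.13 (adjusted p = 0.0705 and 0.252). The arrays of these shared probe sets did not overlap between groups.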
